A study of Mus musculus with 11 samples.

Results

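The genes described here encode the translation initiation factors of the mouse, their regulators and their close relatives. They were chosen by name: 52 of the 24421 genes in the count table carry a symbol from Eif1 to Eif6, after Eif1ad, Eif4enif1, Eif4e1b and symbols ending in -ps were left out. They were followed in RNA-seq libraries of 4 groups, which set the loss of Daxx, a histone chaperone gene, against its presence in MII oocytes (ovulated eggs held in meiosis II) and in late 2-cell embryos. Maternal knockout embryos (Daxx f/f; Zp3-cre; m-z+; 2 libraries, replicates 2 and 3) and control embryos (3 libraries) were made by in vitro fertilisation with sperm of JF1 males and collected 33 h later. Knockout oocytes (Daxx f/f; Zp3-cre) and control oocytes (Daxx f/f) had 3 libraries each and were collected 20 h after hCG. All females were older than 8 weeks, carried floxed Daxx alleles and had a mixed C57BL/6J and 129/Sv background. Cre was driven by the promoter of Zp3, a gene of growing oocytes, and the transgene was present only in knockout females. Embryos of those females still received a paternal Daxx allele. A library was made from 50 pooled oocytes or embryos, taken from 2 to 3 females, so the p-values measure the spread between such pools.

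The embryo libraries held 17978192 to 25308468 counted reads and the oocyte libraries 32582998 to 39798586. Levels are given in CPM (counts per 1000000 counted reads), which are shares of a library: the amount of RNA per oocyte or embryo was not measured, and a gene that gained RNA cannot be told apart from one that kept it while other RNA was lost. Where genes are compared with each other, CPM were divided by the deposited gene width in kilobases, called per length below. Daxx itself had 7.83 to 8.40 CPM in knockout oocytes, against 86.2 to 97.2 CPM in control oocytes, and 22.8 to 25.5 CPM in maternal knockout embryos, against 35.2 to 46.7 CPM in control embryos. Marker levels followed the stage labels: 8 transient 2-cell genes summed to 579 to 855 CPM over all embryo libraries and 3.12 to 5.45 CPM over all oocyte libraries, and 9 oocyte genes to 1443 to 1960 CPM in embryos and 10278 to 10629 CPM in oocytes. Lars2 took 1.81% of the reads in maternal knockout embryo replicate 2 and 1.85% in control embryo replicate 2, and 0.482 to 0.871% in the other embryo libraries. A list of 12 granulosa and cumulus cell genes summed to 289 to 337 CPM in maternal knockout embryos and 318 to 374 CPM in control embryos, against 80.9 to 90.1 CPM in knockout oocytes and 82.6 to 91.5 CPM in control oocytes. Most of that sum was Nr5a2, which averaged 281 CPM in control embryos and 64.7 CPM in control oocytes. Amhr2 averaged 44.6 CPM in control embryos and 0.0291 CPM in control oocytes, Star 3.21 and 0.455 CPM, and Tnfaip6 3.01 and 0.0205 CPM. Cyp19a1 averaged 3.83 CPM in control embryos and 19.0 CPM in control oocytes, and Has2 0.956 and 1.59 CPM. The other 6 (Amh, Fshr, Foxl2, Inhba, Inhbb and Ptx3) averaged at most 0.601 CPM in any group. The part of these markers in the stage changes below was not tested.

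In initiation, eIF2 loaded with GTP brings the initiator tRNA to the small ribosomal subunit, which also binds eIF1, eIF1A, eIF3 and eIF5 and scans for a start codon. eIF2B reloads eIF2, and 4 kinases that phosphorylate eIF2 hold this step back under stress. On the mRNA, eIF4E binds the cap, eIF4G ties it to the helicase eIF4A and to eIF3, and 4E-binding proteins block that tie. The mouse oocyte at MII is transcriptionally silent and works from stored maternal mRNA, whereas the late 2-cell embryo has degraded much of that store and has begun to transcribe its own genome.

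Between oocyte and 2-cell embryo, the transcripts of the initiation machinery were exchanged gene by gene, some raised and others lowered. A split in both directions was also found over all genes, and the members departed from it upward. Of the 52 members, 30 were higher and 20 were lower in control embryos than in control oocytes (edgeR quasi-likelihood test, Benjamini-Hochberg adjusted p under 0.05 over 15577 genes), while Eif5b and Eif6 did not pass. Over all genes tested, 43.1% were higher and 40.0% lower, against 57.7% and 38.5% of the members. A change of at least 2-fold was found upward in 19 members and downward in 9, against 33.0% and 28.5% of all genes. The median log2 change of the members was 0.56, against 0.07 for all genes. Members took 0.853 to 0.876% of the reads of maternal knockout embryos and 0.915 to 0.966% in control embryos, against 0.569 to 0.586% in knockout oocytes and 0.575 to 0.584% in control oocytes. The 4 groups of libraries thus formed a high pair, the embryos, and a low pair, the oocytes, with no overlap between the stages. Eif4g2, Eif4g1 and Eif5 gained the most CPM. They averaged 530, 176 and 337 CPM in control oocytes and 2303, 886 and 964 CPM in control embryos. Summed CPM of eIF1 with eIF1A, eIF2B, the eIF2 kinases and eIF4E were lower in control embryos than in control oocytes. So was that of eIF4A with eIF4B and eIF4H, while the other functional groups summed higher. Members rose and fell within eIF1 and eIF1A, eIF2, eIF2B, the eIF2 kinases, eIF3, eIF4E and eIF4G. The 4 eIF4A genes and the 3 genes of 4E-binding proteins were all called higher in control embryos, while the eIF4A cofactors Eif4b and Eif4h fell. The calls of Eif4a1, Eif4a2 and Eif4ebp3 were lost in some alternative settings. None of these 3 genes was called between the knockout stages. Without Eif2s3y, which had no read in any oocyte and so could only come out higher, the members numbered 51, of which 29 rose and 20 fell, and their median log2 change was 0.54. Eif2s3y is likewise among the 19 that rose by at least 2-fold.

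**Figure D1:**
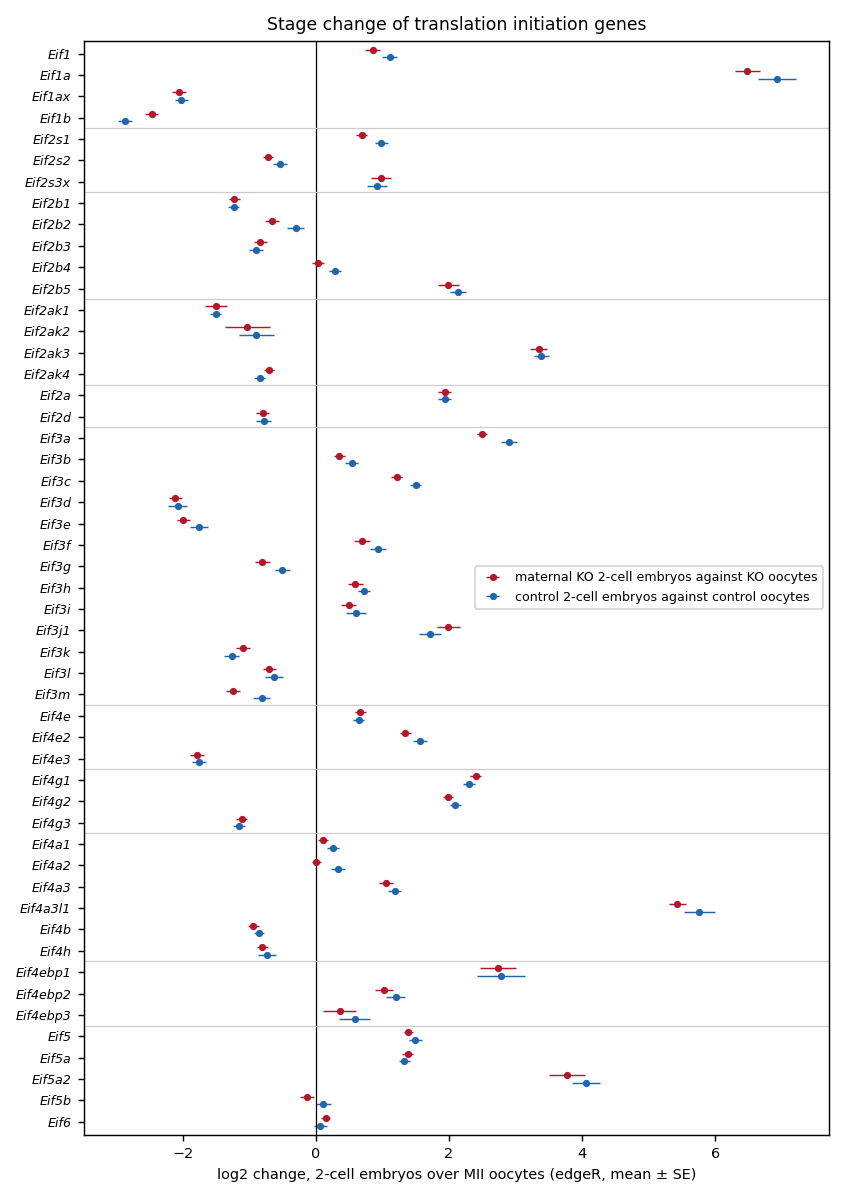
Each point is the log2 change of 1 gene between 2-cell embryos and MII oocytes (edgeR estimate, bars ± SE), with maternal knockout against knockout in red and control against control in blue; grey lines separate the functional groups. Changes in controls run from -2.87 for Eif1b to 6.93 for Eif1a, and the points of both genotypes lie close together; Eif2s3y, with 0 reads in oocytes, is not drawn.

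The factors that hold the scanning ribosome open to the start codon showed the sharpest exchange. Eif1 and Eif1b encode close forms of eIF1, which guards the choice of start codon. Eif1 had 110.3 and 119 CPM in maternal knockout embryos and 147, 127 and 120.1 CPM in control embryos, against 54.0, 67.6 and 62.8 CPM in knockout oocytes and 57.1, 62.4 and 60.8 CPM in control oocytes. Eif1b had 36.9 and 41.5 CPM in maternal knockout embryos and 26.8, 26.6 and 32.7 CPM in control embryos, against 205, 218 and 207 CPM in knockout oocytes and 199.6, 223 and 197 CPM in control oocytes. In both genes all embryo libraries stood apart from all oocyte libraries, Eif1 above them and Eif1b below. Eif1 was 2.15-fold higher in control embryos than in control oocytes (log2 change 1.10 ± 0.11 SE, adjusted p = 1.3e-06) and Eif1b was 7.33-fold lower in control embryos than in control oocytes (log2 change -2.87 ± 0.11 SE, adjusted p = 3.8e-10). Per length of gene, Eif1b made up 32.0% of the sum of both in maternal knockout embryos and 23.1% in control embryos, against 82.4% in knockout oocytes and 82.5% in control oocytes. The leading form of eIF1 mRNA was therefore Eif1b in oocytes and Eif1 in embryos.

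Promoter stretches of this pair are shown because the genes encode near relatives and moved in opposite directions. Both are from RefSeq (GRCm38.p6), run from 100 bases before to 20 bases from the annotated start, and carry in capitals any match on either strand to CCAAT (the CCAAT box), GGGCGG (the GC box), TATAAA (the TATA box) or CCGGAAG (the core of ETS family sites). Eif1 is at chr11:100319849-100319968, plus strand, and Eif1b at chr9:120492506-120492625, plus strand.
Eif1: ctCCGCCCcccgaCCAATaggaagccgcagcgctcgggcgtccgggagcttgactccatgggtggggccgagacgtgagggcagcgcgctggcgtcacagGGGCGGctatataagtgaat
Eif1b: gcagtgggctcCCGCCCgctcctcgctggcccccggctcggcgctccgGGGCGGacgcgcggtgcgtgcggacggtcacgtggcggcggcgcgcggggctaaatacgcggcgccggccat
Both stretches carried GGGCGG on each strand, and CCAAT was present in that of Eif1 alone.

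Eif1a and Eif1ax encode eIF1A, which binds beside eIF1 on the small subunit. Eif1a had 75.7 and 54.0 CPM in maternal knockout embryos and 80.8, 65.0 and 73.3 CPM in control embryos, against 0.733, 0.771 and 0.582 CPM in knockout oocytes and 0.645, 0.879 and 0.234 CPM in control oocytes. Eif1ax had 48.2 and 56.3 CPM in maternal knockout embryos and 49.7, 57.1 and 49.1 CPM in control embryos, against 207, 227 and 201 CPM in knockout oocytes and 208, 219 and 196 CPM in control oocytes. Eif1a was near absent from every oocyte library and moderate in every embryo library, and Eif1ax ran the other way. The fitted change of Eif1a was 122-fold higher in control embryos than in control oocytes (log2 change 6.93 ± 0.28 SE, adjusted p = 6.8e-10), the largest among members with reads in both stages, and Eif1ax was 4.06-fold lower in control embryos than in control oocytes (log2 change -2.02 ± 0.10 SE, adjusted p = 3.3e-09). Per length, Eif1ax nevertheless remained the main form in embryos, with 71.5% of the sum of both genes in maternal knockout embryos and 68.9% in control embryos, against 99.9% in both oocyte groups. By reads, Eif1a led in embryos, averaging 73.1 CPM against 52.0 CPM for Eif1ax in control embryos. In maternal knockout embryos the means were 64.9 and 52.3 CPM, though replicate 3 had slightly more Eif1ax. The order in embryos thus depends on the deposited widths, 2879 bases for Eif1a and 926 for Eif1ax. How reads shared by these similar genes were assigned is not stated, so the split between them is uncertain.

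The transcripts of the 3 eIF2 subunits did not move as a unit. Eif2s1, the alpha subunit that stress kinases phosphorylate, had 89.5 and 87.3 CPM in maternal knockout embryos and 111, 97.5 and 111 CPM in control embryos, against 51.2, 54.3 and 54.0 CPM in knockout oocytes and 55.2, 52.1 and 51.6 CPM in control oocytes. It was 1.97-fold higher in control embryos than in control oocytes (log2 change 0.98 ± 0.10 SE, adjusted p = 1.4e-06). Eif2s2, the beta subunit, had 93.4 and 94.2 CPM in maternal knockout embryos and 90.4, 115 and 111 CPM in control embryos, against 146, 155 and 147 CPM in knockout oocytes and 153, 156 and 143 CPM in control oocytes. It was 1.45-fold lower in control embryos than in control oocytes (log2 change -0.54 ± 0.10 SE, adjusted p = 3.5e-04). Alpha thus rose and beta fell, each with embryo and oocyte libraries apart. The gamma subunit, which holds GTP and the initiator tRNA, is encoded on the X chromosome by Eif2s3x and on the Y chromosome by Eif2s3y. Eif2s3x had 17.4 and 19.2 CPM in maternal knockout embryos and 14.9, 18.9 and 18.9 CPM in control embryos, against 7.80, 10.1 and 9.05 CPM in knockout oocytes and 8.96, 9.45 and 9.01 CPM in control oocytes. It was 1.89-fold higher in control embryos than in control oocytes (log2 change 0.92 ± 0.15 SE, adjusted p = 1.1e-04).

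Eif2s3y had 6.44 and 8.89 CPM in maternal knockout embryos and 8.23, 8.57 and 7.77 CPM in control embryos, and 0 reads in each of the 6 oocyte libraries. Oocytes carry no Y chromosome, whereas a pool of embryos can hold both sexes. Against the floor of 3 reads over the 3 libraries of an oocyte group, its level was at least 290.1-fold higher in maternal knockout embryos than in knockout oocytes, and at least 302-fold higher in control embryos than in control oocytes. Eif2s3y passed the filter on low counts only through the embryos, so no test of it is given. Per length, Eif2s3y was 46.5% of the gamma subunit sum in maternal knockout embryos and 49.2% in control embryos, although it is encoded only where a Y chromosome is present. Their promoter stretches, Eif2s3x at chrX:94212632-94212751, minus strand and Eif2s3y at chrY:1010495-1010614, plus strand, are shown as the pair of X and Y copies that reached near-equal levels per length in embryos, with the same meaning of capitals.
Eif2s3x: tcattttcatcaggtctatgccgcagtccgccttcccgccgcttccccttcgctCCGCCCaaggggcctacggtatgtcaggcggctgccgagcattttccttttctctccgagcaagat
Eif2s3y: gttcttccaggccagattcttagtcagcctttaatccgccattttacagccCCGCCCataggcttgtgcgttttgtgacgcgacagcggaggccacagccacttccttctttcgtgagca
Each held 1 match to GGGCGG on the opposite strand and none to the other motifs.

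eIF2B, the 5-subunit complex that reloads eIF2, changed its balance of subunit transcripts. Eif2b5, the catalytic epsilon subunit, had 79.9 and 63.6 CPM in maternal knockout embryos and 59.9, 69.3 and 73.8 CPM in control embryos, against 14.9, 16.3 and 21.0 CPM in knockout oocytes and 14.4, 15.1 and 15.9 CPM in control oocytes. It was 4.39-fold higher in control embryos than in control oocytes (log2 change 2.13 ± 0.12 SE, adjusted p = 7.9e-09). Eif2b1, the alpha subunit, had 96.6 and 81.3 CPM in maternal knockout embryos and 79.2, 81.9 and 91.0 CPM in control embryos, against 195, 205 and 203 CPM in knockout oocytes and 191, 194 and 197 CPM in control oocytes. It was 2.35-fold lower in control embryos than in control oocytes (log2 change -1.24 ± 0.09 SE, adjusted p = 6.5e-08). Epsilon was high in embryos and alpha in oocytes, and neither gene overlapped between stages. Eif2b3, gamma, was also 1.87-fold lower in control embryos than in control oocytes (log2 change -0.91 ± 0.11 SE, adjusted p = 7.1e-06). Eif2b2 (beta) and Eif2b4 (delta) moved little: their log2 changes were -0.31 ± 0.13, adjusted p = 0.0413 and 0.28 ± 0.09, adjusted p = 0.0147. The call of Eif2b2 was lost in 10 of 13 alternative settings, among them the removal of control embryo replicate 1 or 2 (-0.27, adjusted p = 0.0799, and -0.26, adjusted p = 0.101) and of control oocyte replicate 1, 2 or 3 (adjusted p = 0.148, 0.0599 and 0.0538). The call of Eif2b4 was lost without control oocyte replicate 2 (0.24, adjusted p = 0.0986) or replicate 3 (0.26, adjusted p = 0.0583). Per length, the most abundant eIF2B subunit exceeded the least abundant 6.54-fold in maternal knockout embryos and 7.70-fold in control embryos, against 14.7-fold in knockout oocytes and 16.3-fold in control oocytes.

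**Figure D2:**
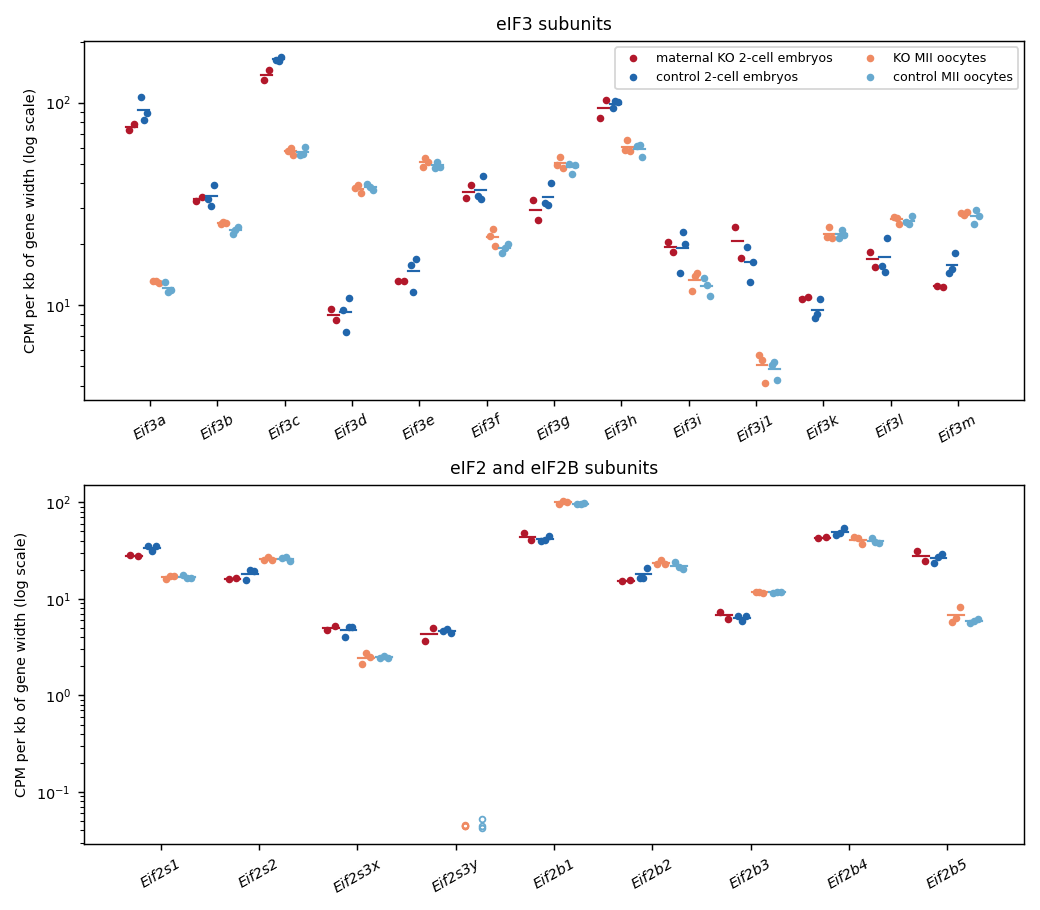
Points are libraries and bars are group means of CPM per kilobase of gene width (log axis) for the subunits of eIF3 (top) and of eIF2 and eIF2B (bottom), in the 4 groups named in the legend; open points mark 0 reads, drawn at the floor of 3 reads. Eif3d and Eif3e stand lower and Eif3a and Eif3c higher in embryos, and Eif2b1 and Eif2b5 move in opposite directions.

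The 4 kinases that phosphorylate eIF2 differed between stages, 1 upward and 3 downward. Eif2ak3 (PERK), which senses unfolded protein in the endoplasmic reticulum, had 103 and 112 CPM in maternal knockout embryos and 105, 109 and 122 CPM in control embryos, against 9.17, 12.0 and 9.58 CPM in knockout oocytes and 11, 10.9 and 9.68 CPM in control oocytes. Eif2ak1 (HRI), which senses low heme, had 66.2 and 97.2 CPM in maternal knockout embryos and 87.0, 84.0 and 84.4 CPM in control embryos, against 223, 212 and 239 CPM in knockout oocytes and 242, 243 and 229 CPM in control oocytes. Embryos held the high values of Eif2ak3 and the low values of Eif2ak1, without overlap. Eif2ak3 was 10.4-fold higher in control embryos than in control oocytes (log2 change 3.38 ± 0.11 SE, adjusted p = 1.4e-10) and Eif2ak1 was 2.84-fold lower in control embryos than in control oocytes (log2 change -1.51 ± 0.08 SE, adjusted p = 7.9e-09). Eif2ak4 (GCN2), which senses uncharged tRNA, had 119.8 and 107 CPM in maternal knockout embryos and 99.5, 107 and 96.4 CPM in control embryos, against 177, 178 and 183 CPM in knockout oocytes and 176, 183 and 178 CPM in control oocytes. It was 1.80-fold lower in control embryos than in control oocytes (log2 change -0.85 ± 0.09 SE, adjusted p = 2.2e-06). Eif2ak2 (PKR), a sensor of double-stranded RNA, had 0.869 and 1.64 CPM in maternal knockout embryos and 1.45, 1.25 and 2.04 CPM in control embryos, against 2.23, 2.82 and 2.36 CPM in knockout oocytes and 3.13, 3.12 and 2.5 CPM in control oocytes, the lowest of the family. It was 1.86-fold lower in control embryos than in control oocytes (log2 change -0.90 ± 0.26 SE, adjusted p = 0.00734). Per length, Eif2ak3 was 35.4% of the kinase sum in maternal knockout embryos and 36.7% in control embryos, against 2.25% in knockout oocytes and 2.21% in control oocytes, and the share of Eif2ak1 was 37.7% and 39.2% in these embryos, against 69.2% and 70.4% in these oocytes. Of the factors that can bring initiator tRNA without eIF2, Eif2a had 92.1 and 95 CPM in maternal knockout embryos and 98.5, 87.9 and 99.7 CPM in control embryos, against 23.0, 25.3 and 22.9 CPM in knockout oocytes and 23.9, 25.8 and 23.8 CPM in control oocytes. It was 3.82-fold higher in control embryos than in control oocytes (log2 change 1.94 ± 0.10 SE, adjusted p = 5.7e-09). Its counterpart Eif2d was 1.73-fold lower in control embryos than in control oocytes (log2 change -0.79 ± 0.11 SE, adjusted p = 4.4e-05).

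eIF3, the largest initiation factor, bridges the small subunit to eIF4G. All 13 of its genes changed, 7 upward and 6 downward, in control embryos against control oocytes, where 83.1% of all genes changed. Eif3a, the scaffold subunit, had 412 and 442 CPM in maternal knockout embryos and 599.9, 463 and 499.7 CPM in control embryos, against 74.1, 73.8 and 72.8 CPM in knockout oocytes and 73.2, 65.3 and 67.2 CPM in control oocytes. Eif3c, which also belongs to its core, had 374 and 418 CPM in maternal knockout embryos and 468, 464 and 484 CPM in control embryos, against 166, 173 and 159 CPM in knockout oocytes and 158, 161 and 174 CPM in control oocytes. Both were higher in every embryo library than in any oocyte library. Eif3a was 7.47-fold higher in control embryos than in control oocytes (log2 change 2.90 ± 0.12 SE, adjusted p = 6.3e-10) and Eif3c was 2.82-fold higher in control embryos than in control oocytes (log2 change 1.50 ± 0.08 SE, adjusted p = 8.5e-09). Eif3j1, a loosely bound subunit that aids ribosome recycling, rose too, with 58.9 and 41.0 CPM in maternal knockout embryos and 46.7, 31.2 and 39.5 CPM in control embryos, against 13.6, 12.9 and 9.90 CPM in knockout oocytes and 12.2, 12.7 and 10.3 CPM in control oocytes. It was 3.29-fold higher in control embryos than in control oocytes (log2 change 1.72 ± 0.16 SE, adjusted p = 1.2e-06). Eif3f, Eif3h, Eif3i and Eif3b rose by less, with log2 changes of 0.93, 0.72, 0.60 and 0.54.

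Among the eIF3 genes that fell, Eif3d, a subunit able to bind the cap of some mRNAs, had 18.2 and 16.1 CPM in maternal knockout embryos and 18.1, 14.0 and 20.7 CPM in control embryos, against 72.4, 74.9 and 68.3 CPM in knockout oocytes and 75.6, 73.5 and 70.6 CPM in control oocytes. Eif3e, its binding partner in the complex, had 20.3 and 20.3 CPM in maternal knockout embryos and 24.4, 17.9 and 25.9 CPM in control embryos, against 74.5, 81.9 and 78.3 CPM in knockout oocytes and 73.7, 78.1 and 74.5 CPM in control oocytes. Both dropped in every embryo library to under any oocyte value. Eif3d was 4.23-fold lower in control embryos than in control oocytes (log2 change -2.08 ± 0.14 SE, adjusted p = 4.0e-08) and Eif3e was 3.38-fold lower in control embryos than in control oocytes (log2 change -1.75 ± 0.13 SE, adjusted p = 1.6e-07). Eif3k and Eif3l, which pair at the edge of the complex, both fell, Eif3k being 2.40-fold lower in control embryos than in control oocytes (log2 change -1.26 ± 0.11 SE, adjusted p = 7.3e-07) and Eif3l 1.55-fold lower in control embryos than in control oocytes (log2 change -0.63 ± 0.13 SE, adjusted p = 8.5e-04). Eif3m and Eif3g had smaller falls, with log2 changes of -0.82 and -0.50. Per length, eIF3 transcripts ranged from Eif3d at 8.98 ± 0.758 to Eif3c at 137 ± 10.9 CPM per kilobase in maternal knockout embryos, and from 9.21 ± 1.76 to 164 ± 3.62 in control embryos (mean ± SD). In oocytes the range ran from Eif3j1 at 5.03 ± 0.819 to Eif3h at 60.3 ± 4.25 in knockout and from 4.85 ± 0.524 to 59.0 ± 4.36 in control. Genes of 1 complex thus differed by 12.0-fold to 17.8-fold per length within a group, although most of their products form 1 complex. Summed over the 13 genes, eIF3 transcripts reached 1325 to 1394 CPM in maternal knockout embryos and 1444 to 1585 CPM in control embryos, against 814 to 874 CPM in knockout oocytes and 809 to 813 CPM in control oocytes.

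At the cap, the balance of eIF4E transcripts shifted from an atypical form toward the canonical one. Eif4e3, an atypical cap binder, had 80.6 and 99.2 CPM in maternal knockout embryos and 103, 97.3 and 82.7 CPM in control embryos, against 308, 299.8 and 295 CPM in knockout oocytes and 310.2, 312 and 324 CPM in control oocytes. Eif4e, the canonical cap binder, had 249 and 275 CPM in maternal knockout embryos and 252, 247 and 275 CPM in control embryos, against 156, 159.9 and 163 CPM in knockout oocytes and 163, 167 and 159 CPM in control oocytes. Eif4e3 was high in all oocytes and low in all embryos, and Eif4e the reverse. Eif4e3 was 3.39-fold lower in control embryos than in control oocytes (log2 change -1.76 ± 0.10 SE, adjusted p = 1.8e-08) and Eif4e was 1.56-fold higher in control embryos than in control oocytes (log2 change 0.64 ± 0.08 SE, adjusted p = 1.2e-05). Eif4e2 (4EHP), which binds the cap without recruiting eIF4G, had 82.1 and 70.9 CPM in maternal knockout embryos and 93.3, 79.8 and 88.7 CPM in control embryos, against 29.4, 29.1 and 28.8 CPM in knockout oocytes and 29.1, 30.8 and 27.1 CPM in control oocytes. It was 2.96-fold higher in control embryos than in control oocytes (log2 change 1.57 ± 0.11 SE, adjusted p = 5.4e-08). Per length, Eif4e3 made up 35.3% of the 3 genes in maternal knockout embryos and 36.0% in control embryos, against 76.6% in knockout oocytes and 77.1% in control oocytes. Eif4e1b, an oocyte-type relative, is outside the set and not in these shares.

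The eIF4G scaffolds carried the largest gain in reads. Eif4g2 (DAP5), a relative that lacks the region binding eIF4E, had 2119 and 2023 CPM in maternal knockout embryos and 2384, 2307 and 2218 CPM in control embryos, against 499.9, 489 and 534 CPM in knockout oocytes and 534, 521 and 535 CPM in control oocytes. Eif4g1, the main scaffold, had 776 and 831 CPM in maternal knockout embryos and 882, 836 and 939 CPM in control embryos, against 139.7, 155 and 147 CPM in knockout oocytes and 182, 161 and 185 CPM in control oocytes. Eif4g3, a full-length paralogue of Eif4g1, had 101 and 102 CPM in maternal knockout embryos and 90.9, 83.7 and 96.2 CPM in control embryos, against 228, 211 and 199.8 CPM in knockout oocytes and 199.7, 197 and 196 CPM in control oocytes. For the first pair every embryo library was above every oocyte library, and for Eif4g3 it was below. Eif4g2 was 4.27-fold higher in control embryos than in control oocytes (log2 change 2.09 ± 0.08 SE, adjusted p = 6.1e-10), Eif4g1 was 4.93-fold higher in control embryos than in control oocytes (log2 change 2.30 ± 0.09 SE, adjusted p = 6.0e-10) and Eif4g3 was 2.23-fold lower in control embryos than in control oocytes (log2 change -1.16 ± 0.08 SE, adjusted p = 1.1e-07). The 3 genes summed to 2957 to 2995 CPM in maternal knockout embryos and 3227 to 3357 CPM in control embryos, against 855 to 881 CPM in knockout oocytes and 880 to 917 CPM in control oocytes. Per length, Eif4g3 was 2.36% of the scaffold sum in maternal knockout embryos and 1.90% in control embryos, against 18.5% in knockout oocytes and 16.2% in control oocytes.

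**Figure D3:**
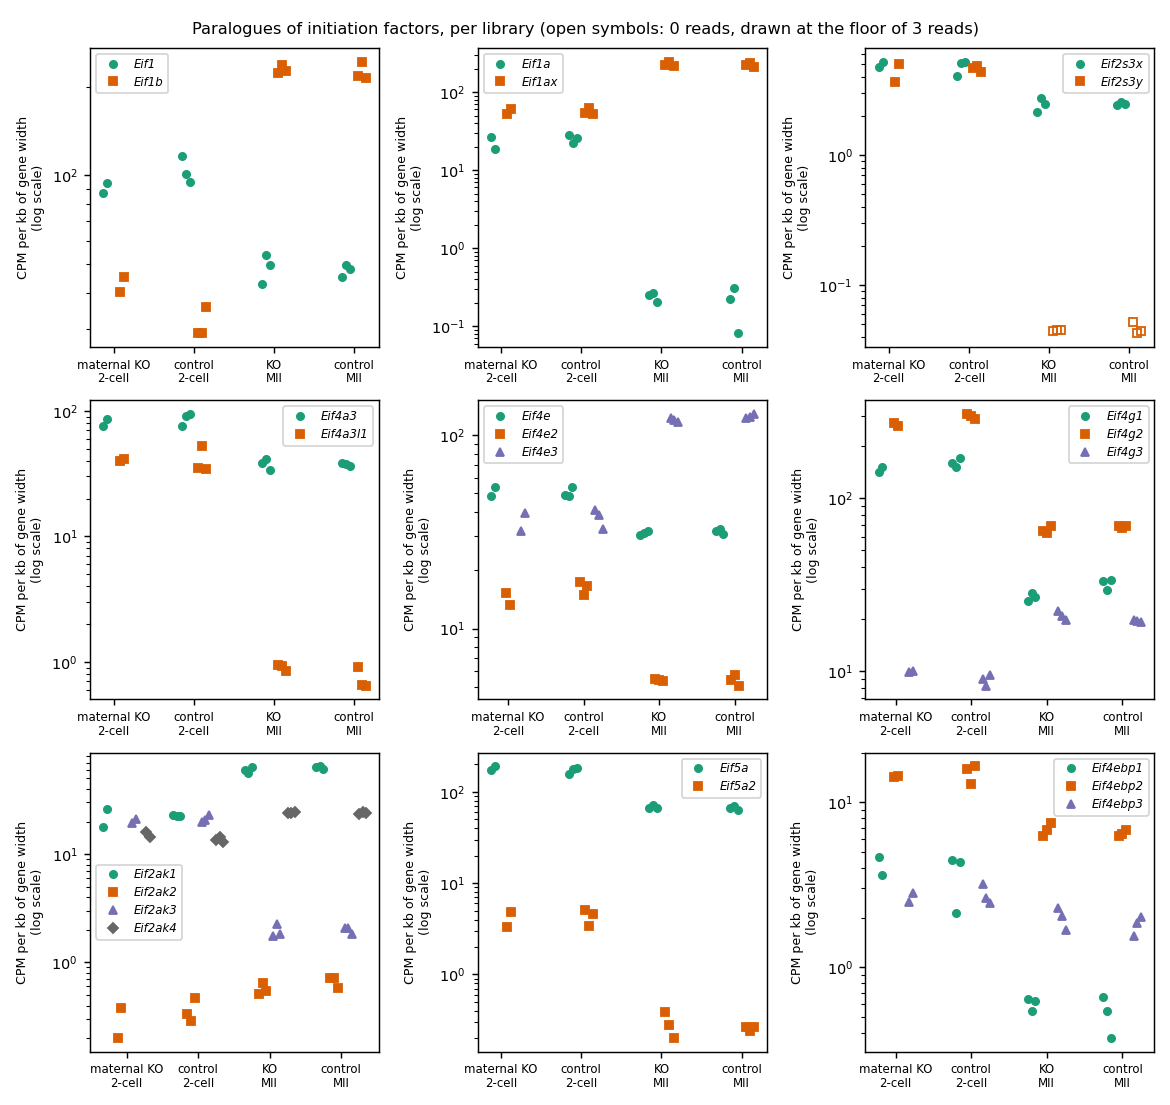
Each panel plots 1 family in CPM per kilobase of gene width (log axis), 1 point per library in the 4 groups; open symbols mark 0 reads, drawn at the floor of 3 reads. Eif1b, Eif4e3 and Eif2ak1 lead their families in oocytes, while Eif1 leads in embryos and Eif4g3 drops to 2.36% and 1.90% of its family there. The eIF4E family holds the members of the set only, so Eif4e3 leads without Eif4e1b counted.

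The helicases Eif4a1 and Eif4a2, which unwind the leader of the mRNA, changed little. Eif4a1 had 161 and 151 CPM in maternal knockout embryos and 170.3, 178 and 158 CPM in control embryos, against 133, 146 and 140.4 CPM in knockout oocytes and 144, 131 and 140.4 CPM in control oocytes. Its log2 change was 0.26 ± 0.09, adjusted p = 0.0196 in controls. Eif4a2 had 113.2 and 105.6 CPM in maternal knockout embryos and 147.6, 119.3 and 125.7 CPM in control embryos, against 104.0, 104.4 and 107.4 CPM in knockout oocytes and 103.6, 99.7 and 103.0 CPM in control oocytes. Its log2 change was 0.33 ± 0.10, adjusted p = 0.00945 in controls. The upward calls of both lost their support when control oocyte replicate 2 was left out (0.20, adjusted p = 0.143 for Eif4a1, and 0.29, adjusted p = 0.0562 for Eif4a2). That of Eif4a1 was also lost without control embryo replicate 2 (0.20, adjusted p = 0.0676) or control oocyte replicate 1 (0.27, adjusted p = 0.0583). Eif4a1 kept 68.6% to 70.7% of the per-length sum of both genes in all 4 groups. The helicase cofactors Eif4b and Eif4h both fell. Eif4b had 229 and 254 CPM in maternal knockout embryos and 256, 240.0 and 268 CPM in control embryos, against 439.6, 462 and 447 CPM in knockout oocytes and 456, 456 and 442 CPM in control oocytes. It was 1.81-fold lower in control embryos than in control oocytes (log2 change -0.85 ± 0.08 SE, adjusted p = 8.5e-07). Eif4h was 1.67-fold lower in control embryos than in control oocytes (log2 change -0.74 ± 0.13 SE, adjusted p = 2.2e-04).

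Eif4a3 encodes a helicase of the exon junction complex, and Eif4a3l1 is an Eif4a3-like gene on chromosome 6. Eif4a3 had 111 and 125 CPM in maternal knockout embryos and 111, 132 and 138 CPM in control embryos, against 55.9, 60.5 and 49.4 CPM in knockout oocytes and 56.3, 55.5 and 53.0 CPM in control oocytes. Eif4a3l1 had 62.7 and 64.7 CPM in maternal knockout embryos and 55.2, 82.0 and 54.1 CPM in control embryos, against 1.49, 1.46 and 1.32 CPM in knockout oocytes and 1.44, 1.03 and 1.02 CPM in control oocytes. The copy was close to absent in all oocyte libraries and reached 31.8% to 33.4% of the per-length sum of both genes in embryos, against 1.93% to 2.34% in oocytes. Eif4a3l1 was 54.2-fold higher in control embryos than in control oocytes (log2 change 5.76 ± 0.23 SE, adjusted p = 6.2e-10) and Eif4a3 was 2.27-fold higher in control embryos than in control oocytes (log2 change 1.18 ± 0.10 SE, adjusted p = 3.9e-07). Reads may be split between such near-identical genes, so the level of each is uncertain. Their promoter stretches are printed because the copy has its own upstream sequence. Eif4a3 is at chr11:119300024-119300143, minus strand, and Eif4a3l1 at chr6:136327439-136327558, plus strand.
Eif4a3: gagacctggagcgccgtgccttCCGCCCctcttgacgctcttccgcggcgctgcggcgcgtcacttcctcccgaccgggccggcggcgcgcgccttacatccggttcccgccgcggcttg
Eif4a3l1: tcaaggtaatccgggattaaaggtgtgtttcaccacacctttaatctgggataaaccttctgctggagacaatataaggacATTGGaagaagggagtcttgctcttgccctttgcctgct
The stretch of Eif4a3 held GGGCGG on the opposite strand, and that of Eif4a3l1 held CCAAT on the opposite strand and no GGGCGG.

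The 4E-binding proteins, which keep eIF4E from eIF4G until mTOR phosphorylates them, were all higher in embryos. Eif4ebp1 had 4.58 and 3.57 CPM in maternal knockout embryos and 4.39, 2.09 and 4.25 CPM in control embryos, against 0.629, 0.532 and 0.609 CPM in knockout oocytes and 0.645, 0.528 and 0.364 CPM in control oocytes. It was 6.87-fold higher in control embryos than in control oocytes (log2 change 2.78 ± 0.36 SE, adjusted p = 1.9e-05). Eif4ebp2, the most abundant of them per length in every group, had 25.6 and 25.8 CPM in maternal knockout embryos and 28.5, 23.0 and 29.6 CPM in control embryos, against 11.2, 12.1 and 13.4 CPM in knockout oocytes and 11.1, 11.4 and 12.2 CPM in control oocytes. It was 2.29-fold higher in control embryos than in control oocytes (log2 change 1.20 ± 0.14 SE, adjusted p = 7.0e-06). Embryo and oocyte libraries of both genes did not overlap. Eif4ebp3 had 2.84 and 3.24 CPM in maternal knockout embryos and 3.67, 3.03 and 2.82 CPM in control embryos, against 2.62, 2.34 and 1.93 CPM in knockout oocytes and 1.78, 2.14 and 2.32 CPM in control oocytes, with a log2 change of 0.58 ± 0.24, adjusted p = 0.0405, and passed in 7 of 13 alternative settings. Its call was lost without replicate 1 or 2 of the control embryos (0.45, adjusted p = 0.119, and 0.60, adjusted p = 0.0587) and without replicate 1 or 2 of the control oocytes (0.46, adjusted p = 0.162, and 0.57, adjusted p = 0.103).

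Of the factors of late initiation, Eif5, which triggers GTP hydrolysis on eIF2, had 838 and 872 CPM in maternal knockout embryos and 1079, 929.8 and 883 CPM in control embryos, against 317, 319.9 and 314 CPM in knockout oocytes and 336, 338 and 336 CPM in control oocytes. It was 2.82-fold higher in control embryos than in control oocytes (log2 change 1.50 ± 0.10 SE, adjusted p = 4.1e-08). Eif5a, a hypusine-modified factor that also serves elongation, had 349 and 385 CPM in maternal knockout embryos and 314, 357 and 367 CPM in control embryos, against 133, 143 and 134 CPM in knockout oocytes and 135, 141 and 129 CPM in control oocytes. It was 2.51-fold higher in control embryos than in control oocytes (log2 change 1.33 ± 0.09 SE, adjusted p = 3.8e-08). Both were higher in all embryo libraries than in any oocyte library. Its paralogue Eif5a2 had 16.4 and 24.2 CPM in maternal knockout embryos and 25.5, 16.8 and 23.2 CPM in control embryos, against 1.91, 1.41 and 1.01 CPM in knockout oocytes and 1.32, 1.21 and 1.33 CPM in control oocytes. It was 16.7-fold higher in control embryos than in control oocytes (log2 change 4.06 ± 0.21 SE, adjusted p = 5.0e-09), while staying at 2.19% of the per-length sum of both genes in maternal knockout embryos and 2.49% in control embryos. Eif5b, which joins the large subunit, had 376 and 468 CPM in maternal knockout embryos and 596, 471 and 469 CPM in control embryos, against 474, 454 and 425 CPM in knockout oocytes and 470.2, 469.6 and 459 CPM in control oocytes, and Eif6, which keeps the subunits apart, had 218 and 203 CPM in maternal knockout embryos and 175, 203 and 237 CPM in control embryos, against 190.3, 185 and 177 CPM in knockout oocytes and 197, 188 and 191 CPM in control oocytes. The libraries of both genes overlapped between stages, with log2 changes of 0.11 ± 0.11, adjusted p = 0.342 and 0.07 ± 0.10, adjusted p = 0.554.

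The order of the members by level per length differed between stages. In maternal knockout embryos it was led by Eif4g2 at 267 ± 8.70, Eif5 at 192 ± 5.40, Eif5a at 182 ± 12.6, Eif4g1 at 146 ± 7.20 and Eif3c at 137 ± 10.9 CPM per kilobase (mean ± SD). In control embryos the same 5 genes led, Eif4g2 at 297 ± 10.7, Eif5 at 216 ± 23.0, Eif5a at 172 ± 14.0, Eif3c at 164 ± 3.62 and Eif4g1 at 161 ± 9.38. In both embryo groups the last 2 of these, Eif4g1 and Eif3c, differed by less than their spread. In knockout oocytes the leaders were Eif1b at 229 ± 7.42, Eif1ax at 229 ± 14.6, Eif4e3 at 119.9 ± 2.63, Eif4b at 114 ± 2.92 and Eif2b1 at 100.1 ± 2.70. In control oocytes they were Eif1b at 225 ± 15.9, Eif1ax at 224 ± 12.6, Eif4e3 at 125 ± 2.98, Eif4b at 114 ± 2.01 and Eif2b1 at 96.6 ± 1.54. Eif1b and Eif1ax differed by less than their spread. The 5 leading genes of the oocytes were all lower in embryos, and those of the embryos were all lower in oocytes. The leaders were picked by these same levels, which favours a lower level at the other stage.

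The same exchange was found where Daxx had been lost from the oocyte. Between maternal knockout embryos and knockout oocytes, 26 members were higher and 20 lower (25 and 20 without Eif2s3y), against 42.5% higher and 37.7% lower of all 16592 genes tested. All 45 of these other than Eif2s3y were called in the same direction in controls, and none in the opposite one. Such agreement was not counted over all genes, most of which were called in each stage comparison. The median log2 change of the members was 0.35, against 0.09 for all genes. Eif1a was 89.5-fold higher in maternal knockout embryos than in knockout oocytes (log2 change 6.48 ± 0.18 SE, adjusted p = 3.0e-09), Eif4a3l1 was 43.1-fold higher in maternal knockout embryos than in knockout oocytes (log2 change 5.43 ± 0.12 SE, adjusted p = 1.1e-09), Eif5a2 was 13.7-fold higher in maternal knockout embryos than in knockout oocytes (log2 change 3.77 ± 0.27 SE, adjusted p = 1.3e-06) and Eif2ak3 was 10.2-fold higher in maternal knockout embryos than in knockout oocytes (log2 change 3.35 ± 0.13 SE, adjusted p = 1.8e-08). In the other direction, Eif1b was 5.52-fold lower in maternal knockout embryos than in knockout oocytes (log2 change -2.47 ± 0.10 SE, adjusted p = 1.9e-08), Eif3d was 4.33-fold lower in maternal knockout embryos than in knockout oocytes (log2 change -2.11 ± 0.10 SE, adjusted p = 5.3e-08) and Eif1ax was 4.18-fold lower in maternal knockout embryos than in knockout oocytes (log2 change -2.06 ± 0.11 SE, adjusted p = 1.1e-07). Among the 10 largest rises were also Eif4ebp1, Eif3a, Eif4g1, Eif2b5 and Eif3j1, with log2 changes of 2.73, 2.49, 2.40, 1.99 and 1.99. Among the 10 largest falls were Eif3e, Eif4e3, Eif2ak1, Eif3m and Eif2b1, with -1.99, -1.79, -1.50, -1.25 and -1.23. The fall of Eif2ak2, -1.03 ± 0.34, adjusted p = 0.0178, was lost without maternal knockout embryo replicate 2 (-0.62, adjusted p = 0.103) or knockout oocyte replicate 2 (-0.95, adjusted p = 0.0570).

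The changes in both genotypes, measured in libraries that they do not share, had a Pearson r of 0.996 across 51 genes, which are not independent replicates. The r over all genes was not computed. The 4 genes called in controls only were Eif4a1, Eif4a2, Eif2b4 and Eif4ebp3, with log2 changes in the knockout stages of 0.11 ± 0.08, adjusted p = 0.214, 0.01 ± 0.07, adjusted p = 0.932, 0.03 ± 0.09, adjusted p = 0.792 and 0.36 ± 0.24, adjusted p = 0.204. The test of the difference between these stage changes did not pass for any of them, with adjusted p = 0.941, 0.913, 0.931 and 0.987 in that order.

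In oocytes, the loss of Daxx left no initiation factor gene past the threshold. None of the 51 members tested was called, where 0.583% of all 14235 genes were, and 2 had an unadjusted p under 0.05, where 10.3% of all genes did. Knockout and control libraries did not overlap in CPM for 3 members higher and 3 lower in knockout oocytes. The share of all genes without overlap was not computed, and 3 libraries can lie apart from 3 by chance, so no effect is read from this count. DESeq2 called 1 member, Eif4g1, and 1.74% of the 13127 genes to which it gave an adjusted p. Eif4g1 had 139.7, 155 and 147 CPM in knockout oocytes, against 182, 161 and 185 CPM in control oocytes. All 3 knockout values lay under all 3 control values, by 1.21-fold on average (log2 change -0.28 ± 0.06 SE, 95% interval -0.41 to -0.15, adjusted p = 0.0690). Over 13 alternative settings its adjusted p ranged from 0.0049 to 0.421 and passed in 3, with DESeq2 (0.0049), without the filter on low counts (0.0088) and without control oocyte replicate 2 (log2 change -0.34, adjusted p = 0.0436). Eif5 had 317, 319.9 and 314 CPM in knockout oocytes, against 336, 338 and 336 CPM in control oocytes, again without overlap, but its log2 change of -0.11 ± 0.04 had an adjusted p of 0.315. The next by p were Eif3f at 0.17 ± 0.08, adjusted p = 0.499, Eif4e3 at -0.09 ± 0.04, adjusted p = 0.510 and Eif3b at 0.10 ± 0.05, adjusted p = 0.556.

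The median log2 change of the members between oocyte genotypes was -0.00061, against 0.00017 for all genes, and 51.0% were negative, against 49.9%. For 46 of the 51 members the 95% interval lay within 1.5-fold in either direction. The other 5 were Eif1a, Eif2ak2, Eif4a3l1, Eif4ebp1 and Eif5a2, all with under 4 CPM in oocytes. A list of 7 sperm and spermatid genes summed to 6.30 to 7.67 CPM in knockout oocytes, against 2.67 to 3.64 CPM in control oocytes, most of it Prm2, and its part in these results was not tested.

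**Figure D4:**
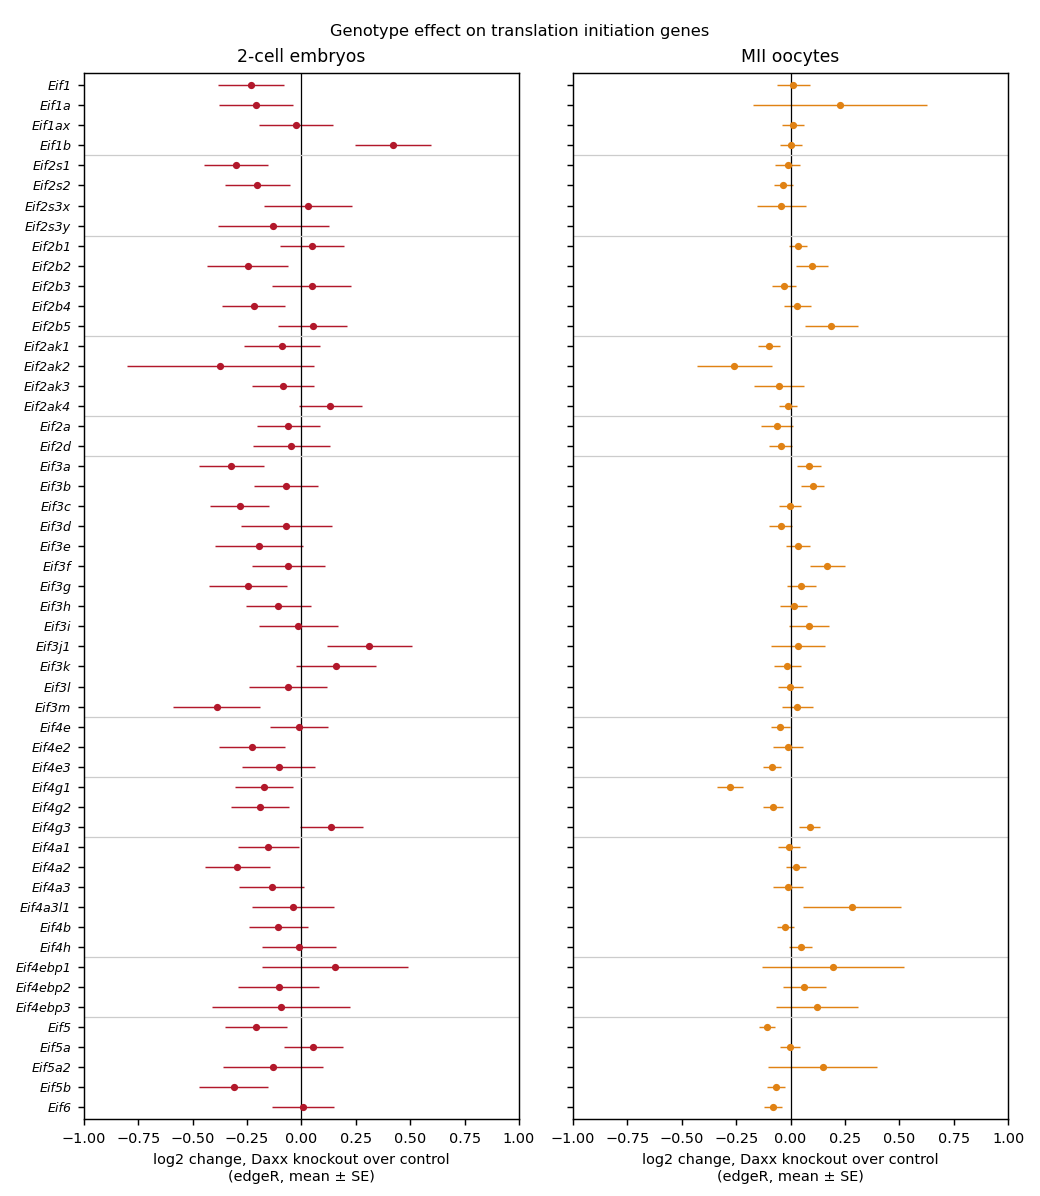
Log2 change of each gene between Daxx knockout and control (edgeR estimate, bars ± SE) in 2-cell embryos (left, maternal knockout) and MII oocytes (right); grey lines separate the functional groups. No gene passed adjusted p under 0.05 in either panel; in embryos 40 of 52 points lie below 0, and in oocytes Eif4g1 stands lowest at -0.28.

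In 2-cell embryos, no member was called between maternal knockout and control either (0 of 52, against 0.0260% of all 15414 genes), and DESeq2 called none (against 0.0649% of all genes). An unadjusted p under 0.05 was reached by 3 members, against 3.19% of all genes. Knockout and control libraries did not overlap in CPM for 12 members lower and 4 higher in maternal knockout embryos. The share over all genes was not computed, and 2 libraries often lie apart from 3 by chance. Eif1b had 36.9 and 41.5 CPM in maternal knockout embryos, against 26.8, 26.6 and 32.7 CPM in control embryos. Both knockout values exceeded all control values, with a log2 change of 0.42 ± 0.18 (95% interval 0.05 to 0.79, adjusted p = 1.00). Eif3a had 412 and 442 CPM in maternal knockout embryos, against 599.9, 463 and 499.7 CPM in control embryos, and Eif3c had 374 and 418 CPM, against 468, 464 and 484 CPM. Knockout values of both core subunits of eIF3 were under all control values, with log2 changes of -0.32 ± 0.15, adjusted p = 1.00 and -0.28 ± 0.13, adjusted p = 1.00. Eif2s1 and Eif4a2 followed with -0.30 ± 0.15, adjusted p = 1.00 and -0.29 ± 0.15, adjusted p = 1.00.

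Most members had a slightly lower share in the maternal knockout embryos, though none passed. The log2 change was negative for 40 of 52 (76.9%, against 49.6% of all genes), with a median of -0.10, against 0.00 for all genes. That median rests on few libraries. Without maternal knockout embryo replicate 2 it was -0.025, against -0.017 for all genes. Without maternal knockout embryo replicate 3 it was -0.17, against -0.0074 for all genes. Without any 1 control library it was -0.12 to -0.10, against 0.0023 to 0.012 for all genes. Per library, the members took 0.853% and 0.876% of reads in maternal knockout embryos, against 0.966%, 0.915% and 0.944% in control embryos. For 37 of 52 members the 95% interval lay within 1.5-fold, and the intervals of the other 15 reached beyond it. The median SE of a member was 0.16 in embryos and 0.06 in oocytes.

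A direct test of whether the effect of Daxx loss differed between embryos and oocytes called no member (0 of 52, against 0.0118% of all 17018 genes). Unadjusted p under 0.05 was reached by 7, against 5.41% of all genes. The first 5 by p were Eif1b at 0.40 ± 0.14, adjusted p = 0.913, Eif3a at -0.41 ± 0.14, Eif3m at -0.43 ± 0.17, Eif3c at -0.29 ± 0.12 and Eif4a2 at -0.33 ± 0.13, all with the same adjusted p. A positive value means a higher knockout over control ratio in embryos than in oocytes. Eif2s1 and Eif2b2 also fell under 0.05, with -0.30 ± 0.12 and -0.36 ± 0.16.

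Partners of the initiation factors also rose and fell between stages. Of 24 genes for proteins that act with the factors, 15 were higher and 6 lower in control embryos than in control oocytes (62.5% and 25.0%, against 43.1% and 40.0% of all genes), and the median log2 change was 0.87. Pabpc1, the poly(A)-binding protein that contacts eIF4G, averaged 619.8 CPM in maternal knockout embryos and 751 CPM in control embryos, against 12.3 CPM in knockout oocytes and 14.0 CPM in control oocytes (log2 change 5.71 in controls). Pabpc1l, its oocyte relative, averaged 49.1 CPM and 39.4 CPM in these embryos, against 323 CPM and 322 CPM in these oocytes (-3.06). Poly(A)-binding transcripts thus changed hands as those of eIF1 and eIF4E did. Bzw1, an eIF5 mimic that restrains loose start codon choice, rose by 3.93 on the log2 scale and Denr, a re-initiation factor, by 3.15, and Larp1, which binds mRNAs of the translation machinery, had a log2 change of 3.93 between the knockout stages.

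Of 19 genes of eIF2 phosphatases and the integrated stress response, the programme that follows eIF2 phosphorylation, 11 were higher and 6 lower in control embryos than in control oocytes (57.9% and 31.6%, against 43.1% and 40.0% of all genes), and the median log2 change was 1.05. Ppp1r15b, the constitutive regulatory subunit of the eIF2 phosphatase, averaged 411 CPM in control embryos and 46.0 CPM in control oocytes (3.13). Sesn2, a target of the stress response, averaged 379 CPM and 3.25 CPM in the same groups (6.84). Ppp1cc, a catalytic phosphatase subunit, changed by 3.27 and Gcn1, which activates GCN2, by -1.84, so both directions occurred within the list. In the knockout stages, Trib3, another target, rose by 5.88 and Nck1, an adaptor, fell by 2.54 on the log2 scale.

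Of 22 genes of mTOR and eIF4E kinase signalling, 12 were higher and 7 lower in control embryos (54.5% and 31.8%, against 43.1% and 40.0% of all genes), and the median log2 change was 0.44. The kinases that phosphorylate eIF4E moved against each other: Mknk2 averaged 116 CPM in control embryos and 10.7 CPM in control oocytes (3.40), and Mknk1 38.8 CPM and 135 CPM (-1.82). Rraga, a GTPase that recruits mTOR to lysosomes, changed by -3.17 and Rhebl1, a relative of the mTOR activator Rheb, by 2.99.

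Of 12 elongation and termination factors tested, 4 were higher and 7 lower in control embryos (33.3% and 58.3%, against 43.1% and 40.0% of all genes), and the median log2 change was -0.91. The release factor genes were split: Etf1 averaged 713 CPM in control embryos and 147 CPM in control oocytes (2.25), and Gspt2 12.6 CPM and 207 CPM (-4.06). Gspt1, also a release factor gene, was not called in controls (-0.14 ± 0.10, adjusted p = 0.179) or between the knockout stages (-0.17 ± 0.09, adjusted p = 0.117). Eefsec, which serves selenocysteine insertion, changed by -2.02 and Eef1e1, a scaffold of tRNA synthetases despite its name, by -2.03. In maternal knockout embryos against knockout oocytes, the higher and lower counts were 14 and 6 for the initiation partners, 11 and 6 for the stress response, 13 and 7 for mTOR signalling and 2 and 7 for elongation and termination, where 42.5% of all genes were higher and 37.7% lower. Between genotypes, 1 gene of these lists was called, Cebpb, a transcription factor of the stress response list, which averaged 18.8 CPM in knockout oocytes and 13.3 CPM in control oocytes (log2 change 0.47 ± 0.08, adjusted p = 0.0191).

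A RefSeq promoter window, 250 bases before to 50 after the start, was matched for 42 of the 52 members. The 12227 genes tested between control stages that had a window served as the background, and several windows of a gene counted as 1 (1.26 windows a gene in the background). CCGGAAG was present for 14 of 42 members (33.3%, against 17.7% of all genes), with a share of 25.0% among 24 members higher and 47.1% among 17 members lower in control embryos. GGGCGG was present for 31 members (73.8%, against 63.0% of all genes). CCAAT was present for 15 (35.7%, against 43.2%), with 45.8% among the members higher and 23.5% among those lower in control embryos. TATAAA was present for 4 (9.52%, against 9.78%), all of them members higher in embryos. Eif2s3y, which could only come out higher, is among these 4 and among the 24 members counted as higher. Shares were not taken over all genes higher or all genes lower in control embryos, so the splits by direction have no background. The matches are letter matches on either strand and show no binding.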

How the data were processed

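The authors deposited whole-number read counts per gene, by Entrez number, and a width per gene, for 11 libraries that the labels' protocols credit to the SoLo RNA-Seq system. STAR 2.5.0a, SAMtools and the build GRCm38 (mm10) are named per the submitters' processing notes. For the counting program, its strand setting and its handling of shared reads, the sources used here give nothing. Symbols, positions and promoter sequences came from RefSeq tables (GRCm38.p6), which matched 24387 of 24421 genes. A count of 0 allows up to 0.0754 to 0.167 CPM per library (3 counts). Such floors hold for counting error alone, because PCR copies are not separate molecules.

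Levels are CPM, divided by the deposited width in kilobases where genes are compared. Tests used edgeR 4.0.16 in R 4.3.3 on the groups compared: filterByExpr (count minimum 10, total minimum 15), TMM factors, the robust quasi-likelihood F test, and Benjamini-Hochberg adjustment over every gene in the fit (threshold 0.05). The SE is the log2 change divided by the square root of F, and 95% intervals use the t distribution of the fit. The fits were checked on simulated counts. Alternatives were DESeq2 1.42.0, RLE factors, library totals, other filters on low counts, a fit of all 11 libraries, a replicate block and the removal of each library in turn. Replicate numbers were not taken as pairs: deviations of same-numbered libraries had correlations of -0.107 to 0.0867. With 2 maternal knockout embryo libraries the deviations mirror each other, so for that group this check decides little. Lars2 took its largest shares in replicate 2 of both embryo groups (1.81% and 1.85% of reads). Replicate counts differed by more than sampling noise in every pair.

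The members and lists were chosen with earlier results of these data known. Every member was counted. Named with values were members past the threshold or among the 5 smallest p in genotype comparisons, the 10 largest rises and falls between stages, all paralogues, the 5 highest per length in each group and up to 4 genes per list by smallest p. Other members named were chosen after their values were seen.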

Additional observations from a re-analysis of the deposited data

Results flagged for a closer look

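Eif4a2 was picked from the members because its knockout and control libraries were ordered oppositely at the 2 stages. The ordering is thus the rule of choice and no test of an effect. So few libraries can be ordered this way by chance, and the share of all genes so ordered was not computed. Eif4a2, a helicase of the cap-binding complex, had no genotype effect that passed at either stage. It had 113.2 and 105.6 CPM in maternal knockout embryos, against 147.6, 119.3 and 125.7 CPM in control embryos, so that both knockout libraries lay under all 3 controls. In knockout oocytes it had 104.0, 104.4 and 107.4 CPM, against 103.6, 99.7 and 103.0 CPM in control oocytes, so that all 3 knockout libraries lay above all 3 controls, though by less than 8 CPM. The difference of the 2 effects was -0.33 ± 0.13 (log2, SE) with an adjusted p of 0.913 in the edgeR test of the difference, which it did not pass.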

How the results depend on the processing

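Across the alternatives, 26 to 30 members were higher and 19 to 20 lower between control stages, and 26 to 28 higher and 19 to 21 lower between knockout stages. With the replicate block the counts were 29 higher and 19 lower in controls, 26 higher and 20 lower in knockouts, and 0 between genotypes at either stage, so the block changed no genotype call. In oocytes, the 0 members called lower became 1 (Eif4g1) with DESeq2 and 1 with no filter on low counts, and 0 to 1 over the libraries left out in turn, where the 1 came without control oocyte replicate 2. The direction turned in stage changes near 0 only. Over the libraries left out in turn, the log2 change between control stages ran from -0.031 to 0.18 for Eif5b and from -0.038 to 0.15 for Eif6. Between knockout stages it ran from -0.041 to 0.071 for Eif2b4, from -0.026 to 0.034 for Eif4a2 and from -0.35 to 0.023 for Eif5b, which passed the threshold without maternal knockout embryo replicate 3. Eif4a2 came to -0.017 with all libraries in 1 fit, -0.015 with no filter on low counts and -0.0088 with the replicate block. The cause was not tested. Counted per gene and alternative setting, 22 values lost their call between control stages, 652 stayed the same and 2 turned direction. The 22 came from Eif2b2, Eif2b4, Eif4a1, Eif4a2 and Eif4ebp3 alone. Between knockout stages 2 values lost their call, both of Eif2ak2, 8 gained it, 605 stayed the same and 9 turned direction. Embryo libraries had fewer reads and a larger SE than oocyte libraries, and the maternal knockout group rests on 2 of them.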
